A study of Mus musculus with 4 samples.

Results

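The angiopoietin, Tie and platelet-derived growth factor (PDGF) genes were followed as 10 members, all of them found by symbol among the 52636 genes of the mouse count matrices. They were the angiopoietin ligands Angpt1 and Angpt2, the receptors Tek (also called Tie2) and Tie1, the phosphatase Ptprb (VE-PTP), the PDGF ligands Pdgfa, Pdgfb and Pdgfd, and the receptors Pdgfra and Pdgfrb. The study profiled single cells of kidney glomeruli from young and aged mice, with 2 libraries of each age. All mice were perfused through the heart with magnetic beads, after which the kidneys were minced and digested, and bead-holding glomeruli were collected on a magnet and digested to cells. No group received a treatment, and the genotype, strain, sex, age in months and number of mice per library are not given in the labels. Since nothing says that libraries came from separate animals, each p-value below measures the spread between libraries, which may be technical.

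In the vessel wall, Angpt1 activates the endothelial receptor Tek, Angpt2 can block that activation, Tie1 acts as a co-receptor, and Ptprb removes phosphate from Tek. PDGF ligands bind receptor dimers on mural and stromal cells, and endothelial Pdgfb acting on Pdgfrb is required for mesangial cells to populate the developing glomerulus. In the kidney, podocytes are described as a source of Angpt1 and mesangial cells as the pericyte-like cells of the capillary tuft.

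Upstream sequence is shown for 2 receptors, Tek and Pdgfra, because their UMIs (unique molecular identifiers, the deduplicated transcript counts) lay in different named cell classes, Tek mostly in endothelial and Pdgfra mostly in mesangial cells. Each is the 250 bases before the RefSeq transcription start on GRCm38.p6, 5′ to 3′ on the gene's own plus strand, with the letters GGAA, read on either strand as GGAA or TTCC, in capitals. GGAA is the core of sites bound by ETS-family factors, which are known regulators of endothelial genes.
Tek, chr4:94739039-94739288: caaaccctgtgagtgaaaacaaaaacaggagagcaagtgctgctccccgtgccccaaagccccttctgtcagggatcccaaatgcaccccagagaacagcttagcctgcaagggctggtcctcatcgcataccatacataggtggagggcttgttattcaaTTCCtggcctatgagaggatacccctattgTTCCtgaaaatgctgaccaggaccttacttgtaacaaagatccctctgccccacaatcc
Pdgfra, chr5:75152001-75152250: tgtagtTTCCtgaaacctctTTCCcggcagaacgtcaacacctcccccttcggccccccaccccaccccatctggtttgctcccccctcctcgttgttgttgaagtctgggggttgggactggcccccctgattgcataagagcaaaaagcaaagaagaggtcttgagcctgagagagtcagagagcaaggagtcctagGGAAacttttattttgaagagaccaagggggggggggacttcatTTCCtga
The Tek window held 2 matches and the Pdgfra window 4, and no annotated transcript overlapped either one. Of 32536 promoter windows of the same length, 93.4% held at least 1 match and the median was 3, so the motif does not set these windows apart. A RefSeq promoter entry was found for 5 of the 10 members.

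In GENCODE vM21, Tek lies on chromosome 4 from 94739289 to 94874976 (plus strand) and Tie1 on the same chromosome from 118471191 to 118490061 (minus strand). Ptprb lies on chromosome 10 from 116275523 to 116389535 (plus strand). The ligand genes Angpt1 (chromosome 15, 42424723 to 42676977) and Angpt2 (chromosome 8, 18690263 to 18741562) are both on the minus strand, and Angpt2 lies opposite Mcph1. Pdgfra spans 75152292 to 75198215 on chromosome 5 and Pdgfrb 61045150 to 61085061 on chromosome 18, both on the plus strand. Pdgfa (chromosome 5, 138976014 to 138997370, minus), Pdgfb (chromosome 15, 79995874 to 80014977, minus) and Pdgfd (chromosome 9, 6168584 to 6378850, plus) each have a gene on the opposite strand, as have Angpt1 and Pdgfra. All 10 are protein coding. Whether counting used the strand is not given in the sources used here, so reads of these opposite genes may be in the counts.

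The 4 libraries held 22398650 and 18457791 UMIs (young 1 and young 2) and 41697199 and 42046542 UMIs (aged 1 and aged 2), and 28000 of 33323 barcodes were kept. Libraries shared between 9 and 31 barcodes by pair, and same-age libraries differed beyond sampling noise in all 3 classes checked. Cells were clustered without the 10 members and named from marker lists, which gave 2412, 1381, 6020 and 4298 endothelial cells, 1757, 592, 986 and 655 podocytes and 249, 169, 613 and 495 mesangial cells in young 1, young 2, aged 1 and aged 2. Young 2 stood apart, because 55.2% of its kept cells lay in clusters with markers of several classes against 1.55%, 0.610% and 1.71% in young 1, aged 1 and aged 2. One of these clusters was led by mesangial genes that included Pdgfrb and held 1146 barcodes of young 2 against 40, 19 and 17. Besides these clusters, single cells with markers of an unrelated class were left out, which in young 1 were 3.46% of kept cells with 52.6% of its Pdgfra and 47.4% of its Pdgfrb UMIs. Named classes held 38.7% to 81.5% of a member's UMIs in young libraries and 78.1% to 96.9% in aged ones. Macrophages numbered 3 and 9 among young and 566 and 501 among aged cells, so their levels are given for aged libraries only. Sub-clusters 17.1 and 17.2 carried parietal epithelial markers but had the smooth muscle gene Tagln among their leading genes, and are called the parietal sub-clusters.

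Levels across classes are counts-per-million (CPM) of the summed cells of a class, scaled over all classes by the trimmed mean of M-values (TMM), and are a description without a test. The Tie receptors marked the endothelium. Tek stood at 344 and 349 CPM in young and 207 and 226 CPM in aged endothelial cells, whereas podocytes held 0.220 to 2.44 CPM and the parietal sub-clusters had no Tek UMI in any library. Mesangial cells came second at 46.8 to 62.6 CPM and did not overlap with endothelial cells in any library. Tie1 was more strictly endothelial, with 216 to 263 CPM there and 2.55 to 5.65 CPM in mesangial cells. Ptprb followed Tek, with 1407 to 1797 CPM in endothelial and 113 to 171 CPM in mesangial cells.

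**Figure D1:**
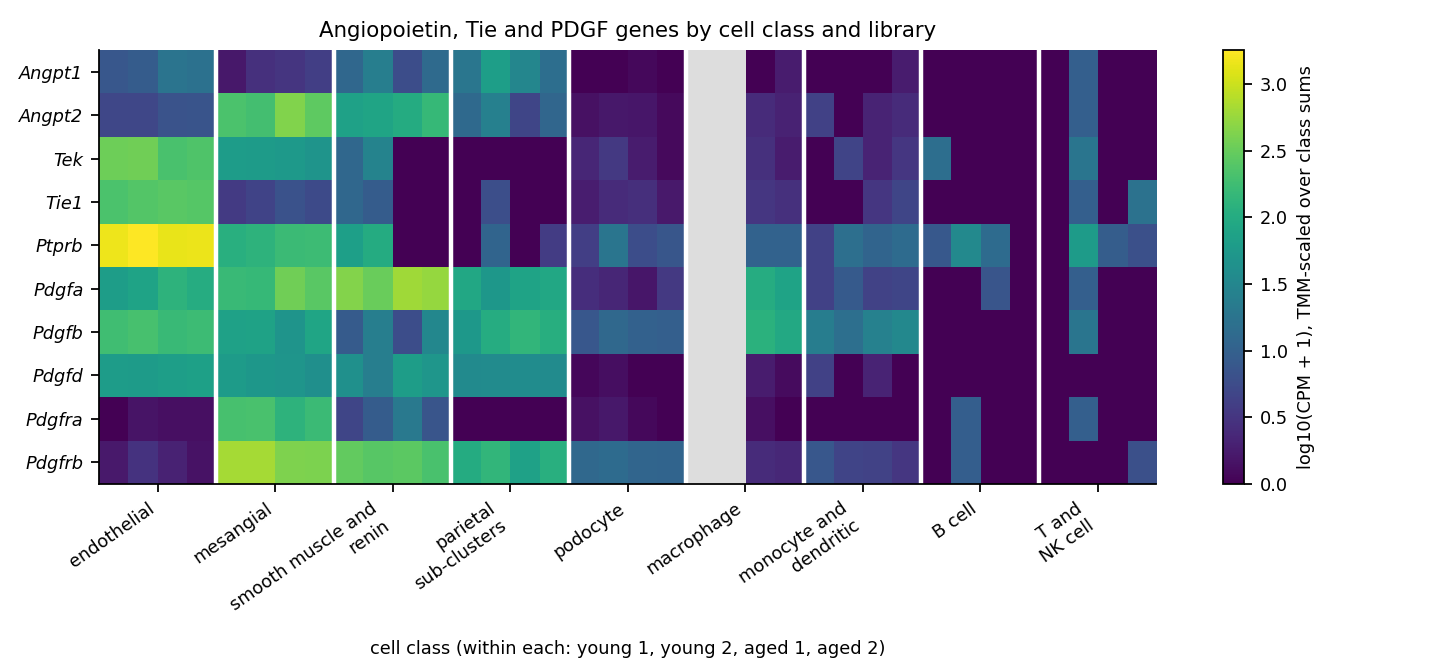
Heat map of log10(CPM + 1) of the 10 members (rows) in each cell class, with the 4 libraries of a class side by side and grey where a class had under 20 cells. Tek, Tie1 and Ptprb are brightest in endothelial cells, Pdgfra in mesangial cells, and Pdgfrb in mesangial, smooth muscle and renin cells.

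The PDGF receptors marked the mural side. Among the named classes Pdgfra was highest in mesangial cells, at 126 to 209 CPM, with 3.80 to 19.7 CPM in smooth muscle and renin cells and at most 0.495 CPM in endothelial cells. Pdgfrb stood at 407 to 654 CPM in mesangial cells, 205 to 296 CPM in smooth muscle and renin cells and 71.5 to 138 CPM in the parietal sub-clusters. These 3 ranges did not overlap, and podocytes followed with 10.3 to 12.8 CPM. Both receptors were found in the same mesangial cells. Of the mesangial cells with a Pdgfra UMI, 94.0%, 91.0%, 87.1% and 90.9% also had a Pdgfrb UMI in young 1, young 2, aged 1 and aged 2, and the share of all mesangial cells with a Pdgfrb UMI was 87.6%, 83.4%, 74.2% and 85.1%.

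Angpt2 was the mesangial member among the ligands, with 189 to 439 CPM in mesangial and 72.2 to 149 CPM in smooth muscle and renin cells, against 3.87 to 5.99 CPM in endothelial cells. Mesangial cells held 87.6%, 82.5%, 93.7% and 91.6% of the Angpt2 UMIs of the named classes in young 1, young 2, aged 1 and aged 2, while making up 5.23%, 6.78%, 6.88% and 7.55% of the named cells. Angpt1 was scarce everywhere. Podocytes gave 0, 0, 1 and 0 Angpt1 UMIs, and with the count of 3 that a 0 allows, up to 0.171%, 0.521%, 0.305% and 0.460% of the podocytes deep enough to be thinned to 1000 UMIs could still have held 1. This limit covers counting error of cells with a UMI and sets none on podocytes that express the gene. Endothelial cells held 39, 32, 229 and 216 Angpt1 UMIs, which were 84.8%, 57.1%, 84.2% and 87.8% of those in named classes. The parietal sub-clusters had the highest Angpt1 level, 13.8 to 66.4 CPM, from 3 to 13 UMIs per library, a range that overlapped with smooth muscle and renin cells at 4.92 to 23.7 CPM and endothelial cells at 6.56 to 16.8 CPM.

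Pdgfa, a ligand of Pdgfra, was highest in smooth muscle and renin cells at 328 to 610.5 CPM, then in mesangial cells at 152 to 348 CPM, a range that met the first, and in endothelial cells at 63.9 to 127 CPM. In UMIs the endothelium was nevertheless the larger source, with 48.8%, 52.6%, 49.2% and 44.8% of the Pdgfa UMIs of named classes, and mesangial cells held 32.0%, 29.3%, 37.0% and 40.7%. Pdgfb, the ligand of Pdgfrb, was endothelial at 162 to 200.0 CPM, with 91.5 and 120.1 CPM in aged macrophages, 53.1 to 139 CPM in the parietal sub-clusters and 47.8 to 81.3 CPM in mesangial cells. Endothelial cells held 85.7% and 83.4% of the Pdgfb UMIs of named classes of young libraries against 77.8% and 72.2% of aged ones, where macrophages held 11.3% and 10.8%. The young libraries held too few macrophages, 3 and 9, for such a share. Pdgfd, another Pdgfrb ligand, was spread over endothelial (59.8 to 70.8 CPM), mesangial (40.5 to 60.7 CPM), smooth muscle and renin (23.7 to 64.0 CPM) and parietal sub-cluster cells (35.4 to 37.6 CPM). The smooth muscle and renin range overlapped with all the others, and the parietal sub-clusters lay below mesangial cells.

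**Figure D2:**
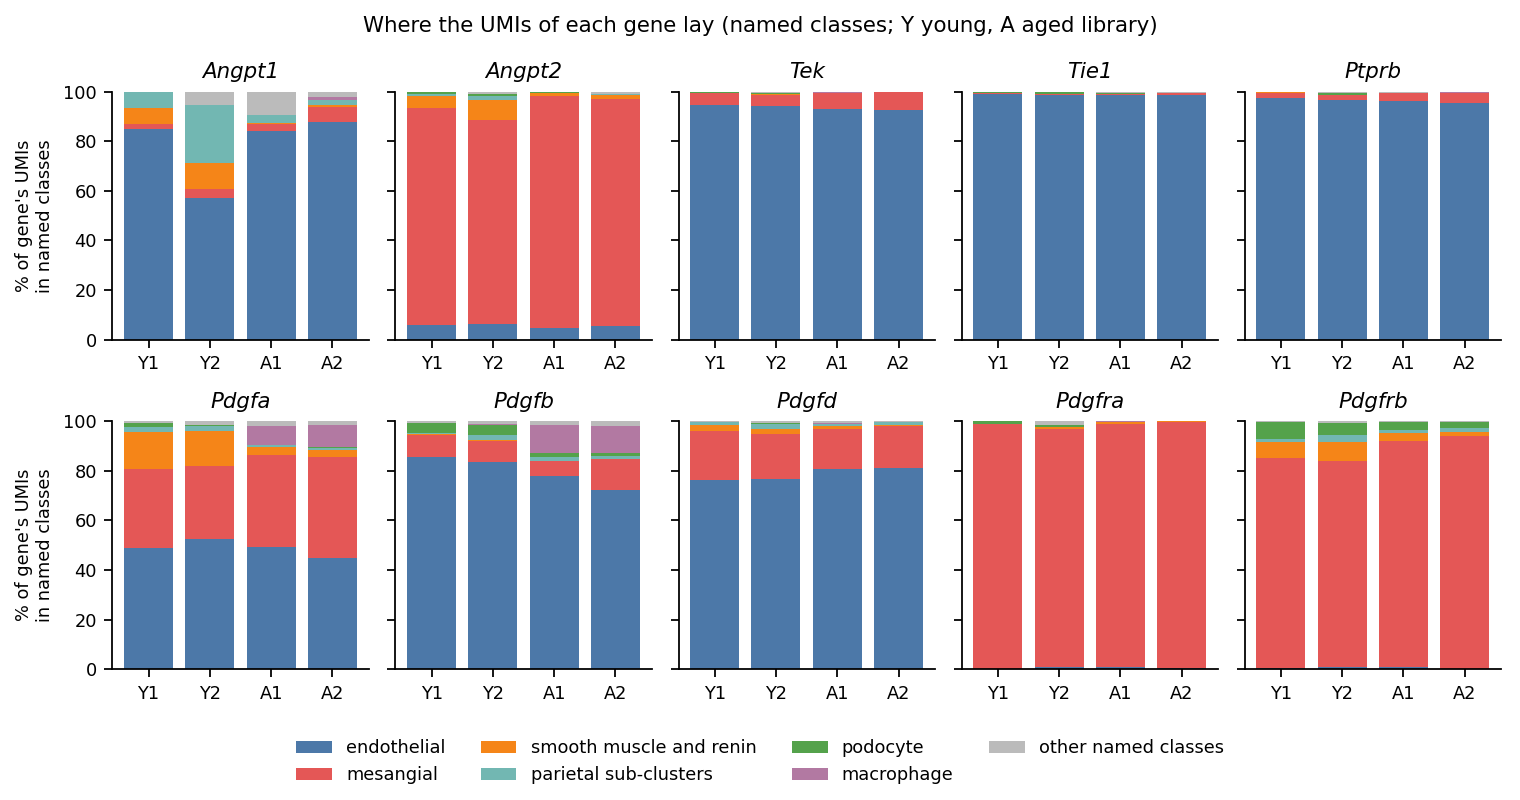
Share of each member's UMIs in named cell classes (percent, y axis) that lay in each class, with 1 bar per library (Y young, A aged) and UMIs of cells left unnamed not counted. Of the named UMIs, those of Tek, Tie1 and Ptprb are mostly endothelial, those of Pdgfra and Angpt2 mostly mesangial, and those of Pdgfa are divided between endothelial and mesangial cells, with a macrophage share of 7.79% and 9.003% in the aged libraries.

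Age was then compared within each class. In endothelial cells Tek fell, Angpt1 and Pdgfa rose, and the remaining 5 of the 8 members that passed the count filter did not pass the test. Here CPM is TMM-scaled within the class. Tek stood at 320.3 and 329 CPM in young and 183 and 201 CPM in aged endothelial sums. The young libraries lay close together and both aged ones were well below them. The log2 fold change of Tek was -0.76 (SE 0.15, n = 2 against 2 libraries, adjusted p = 0.00336, edgeR quasi-likelihood test with Benjamini-Hochberg adjustment over 13148 genes), so that Tek fell by 40.8%. At that threshold of 0.05, 5.89% of all endothelial genes were called, 1.99% lower and 3.90% higher in aged cells, beside 1 lower and 2 higher of the 8 members.

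The Tek call did not hold with 3 libraries in every case. The log2 fold change was -0.77 without young 1 (adjusted p = 0.323) and -0.74 without young 2 (adjusted p = 0.346), where no gene of the class passed the test. Without aged 1 it was -0.68 (adjusted p = 0.0729) and without aged 2 it was -0.83 (adjusted p = 0.0119). Over all 15 alternatives the adjusted p ranged from 2.57e-05 to 0.633. After each cell was thinned to 1000 UMIs, 28.2 ± 0.542% (SD, n = 2) of young and 17.0 ± 1.35% of aged endothelial cells had a Tek UMI (exact two-sided permutation p = 0.33, the smallest that 2 against 2 libraries allow). The unthinned shares were 51.7% and 56.1% in young and 34.2% and 47.9% in aged libraries, and at most 0.694% of podocytes had a Tek UMI after thinning. Median depths were 2317, 2651, 2340 and 3227 UMIs for endothelial cells and 4198, 5748, 5816 and 7673 UMIs for podocytes in young 1, young 2, aged 1 and aged 2.

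Tie1, the sister receptor, gave 201 and 229 CPM in young and 233 and 219.7 CPM in aged endothelial sums. The groups overlapped, and the log2 fold change was 0.07 (SE 0.14, adjusted p = 0.848). The ratio of Tek to Tie1 UMIs was accordingly 1.596 and 1.43 in young and 0.785 and 0.917 in aged endothelial sums, above 1 in both young libraries and below 1 in both aged ones. Ptprb stood at 1374 and 1690.2 CPM in young and 1244 and 1298 CPM in aged libraries, with a log2 fold change of -0.27 (SE 0.17, adjusted p = 0.446). Its groups did not overlap, as was so for 7 of the 8 members and for 48.7% of all genes tested.

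Endothelial Angpt1 was low, with 6.10 and 7.44 CPM in young and 14.9 and 13.9 CPM in aged sums. Both aged libraries were about the same and above both young ones. The log2 fold change was 1.10 (SE 0.22, adjusted p = 0.00413, a 2.15-fold rise). Without young 1 and without young 2 the adjusted p was 0.347 and 0.346, and the range over 14 alternatives was 4.76e-04 to 0.722. Angpt2 had 23 and 16 UMIs (3.597 and 3.72 CPM) in young and 80 and 83 UMIs (5.19 and 5.34 CPM) in aged endothelial cells, and its log2 fold change of 0.53 (SE 0.28, adjusted p = 0.341) did not pass.

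Of the endothelial PDGF ligands, Pdgfa stood at 59.4 and 70.9 CPM in young and 112 and 92.3 CPM in aged sums. The groups did not overlap, with the higher young library closer to aged 2 than to aged 1. Its log2 fold change was 0.65 (SE 0.15, adjusted p = 0.0121), a rise of 57.2%. The adjusted p was 0.377 without young 1, 0.391 without young 2, 0.159 without aged 1 and 0.00264 without aged 2, with a range of 0.00264 to 0.612 over 15 alternatives. Pdgfb gave 167 and 188 CPM in young and 143 and 151 CPM in aged libraries (log2 fold change -0.27, SE 0.14, adjusted p = 0.312). Pdgfd gave 57.1 and 56.3 CPM in young and 58.7 and 63.2 CPM in aged libraries (log2 fold change 0.10, SE 0.14, adjusted p = 0.754). The median log2 fold change of the 8 members was 0.09 against -0.01 over all endothelial genes.

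**Figure D3:**
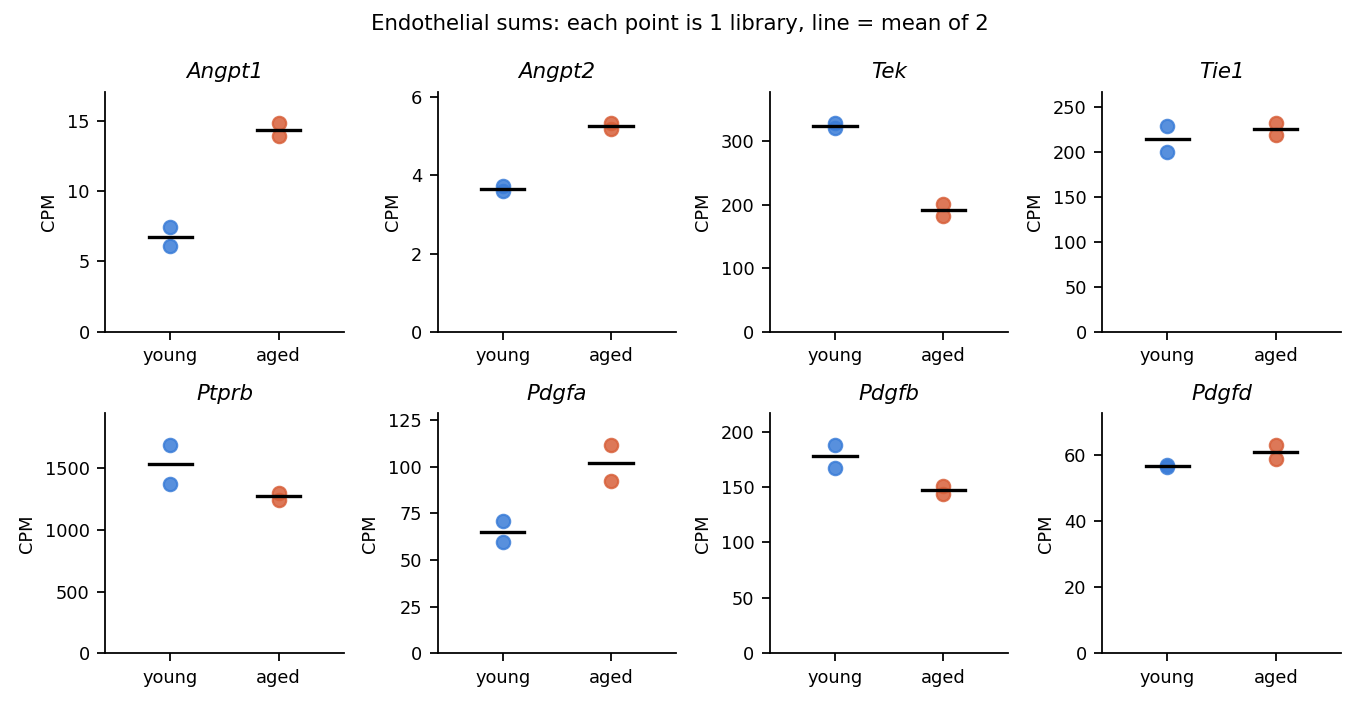
CPM (y axis, from 0) of the 8 members tested in endothelial sums, 1 point per library by age group with the mean as a line. The aged Tek points lie at 183 and 201 CPM under the young ones at 320.3 and 329 CPM, while the Tie1 points of both ages mix.

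The endothelial class was then divided by cluster, a division chosen with the data in view. Clusters 1, 3, 6 and 22 were highest in glomerular capillary markers (cluster 6 had Sele among its leading genes), cluster 0 in activated markers such as Sele, Selp and Lrg1, cluster 5 in arteriolar markers although Fabp4 was also among its leading genes, and cluster 8 in venous or peritubular markers. Cluster 8 also had an arteriolar marker level of 0.742 where cluster 5 stood at 1, and Edn1 of the arteriolar list was among its leading genes. Their shares of the endothelial cells differed between libraries. Clusters 1, 3, 6 and 22 made up 67.8%, 63.7%, 35.2% and 48.7% in young 1, young 2, aged 1 and aged 2, and cluster 0 made up 14.6%, 14.7%, 39.8% and 29.2%. Cluster 0 thus took a larger share of both aged libraries, and the first group a smaller one.

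Tek fell past the threshold in 2 of these 4 groups of clusters. In clusters 1, 3, 6 and 22 it stood at 343 and 358 CPM in young and 193 and 213 CPM in aged libraries, with a log2 fold change of -0.78 (SE 0.15, adjusted p = 0.00479, where 3.50% of genes were called). In cluster 0 it stood at 344 and 338 CPM in young and 172 and 193 CPM in aged libraries (log2 fold change -0.90, SE 0.16, adjusted p = 2.58e-04, where 4.13% were called). The value for the whole class was -0.76. In cluster 5 the values were 240.3, 401, 179 and 193 CPM in young 1, young 2, aged 1 and aged 2, and the log2 fold change of -0.73 (SE 0.22, adjusted p = 0.131) did not pass.

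In cluster 8 Tek stood at 237 and 221 CPM in young and 186 and 215 CPM in aged libraries, with a log2 fold change of -0.19 (SE 0.17, adjusted p = 0.633, where 3.67% of genes were called). The difference in age effect was itself tested. It was 0.61 (SE 0.15, adjusted p = 0.0144) between cluster 8 and clusters 1, 3, 6 and 22, where 1.19% of genes were called, and 0.72 (SE 0.16, adjusted p = 0.00858) between cluster 8 and cluster 0, where 0.962% were called. Against cluster 5 it was 0.50 (SE 0.20, adjusted p = 0.314, where 1.24% were called), and between clusters 5 and 0 it was 0.21 (SE 0.18, adjusted p = 0.841, where 0.304% were called). These were the 2 differences called among 45 tested over the members and 6 pairs of cluster groups. Even in young libraries the ratio of Tek to Tie1 UMIs was lower in cluster 8, at 1.21 and 0.977, than in clusters 1, 3, 6 and 22, at 1.72 and 1.52, while in aged libraries it was 1.09 and 1.11 against 0.810 and 1.01.

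Angpt1 UMIs were concentrated in cluster 5. That cluster held 53.8%, 34.4%, 65.1% and 56.0% of the endothelial Angpt1 UMIs in young 1, young 2, aged 1 and aged 2 and 8.997%, 6.23%, 15.3% and 12.98% of the endothelial cells. Its Angpt1 level was 44.7 and 47.9 CPM in young and 85.4 and 84.2 CPM in aged libraries (log2 fold change 0.89, SE 0.26, adjusted p = 0.127, where 1.20% of genes were called). In clusters 1, 3, 6 and 22 the level was 3.38 and 4.57 CPM in young and 7.32 and 6.95 CPM in aged libraries (log2 fold change 0.88, SE 0.33, adjusted p = 0.195). In cluster 0 it was 2.93 and 11.2 CPM in young and 3.56 and 5.34 CPM in aged libraries, so that the groups overlapped (log2 fold change -0.55, SE 0.55, adjusted p = 0.722). Angpt1 thus passed in none of the 3 cluster groups where it was tested. In cluster 8, where it missed the count filter, it had 1 and 0 UMIs in young and 12 and 16 UMIs in aged libraries.

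Pdgfa rose in cluster 0, from 48.8 and 82.8 CPM in young to 124 and 106 CPM in aged libraries (log2 fold change 0.85, SE 0.20, adjusted p = 0.00749). In clusters 1, 3, 6 and 22 it did not pass, with 56.1 and 71.6 CPM in young and 100.4 and 81.1 CPM in aged libraries (log2 fold change 0.52, SE 0.16, adjusted p = 0.1001). The difference between these 2 age effects was 0.36 (SE 0.17, adjusted p = 0.586). Between cluster 5 and clusters 1, 3, 6 and 22 the Pdgfd age effect differed by 0.86 (SE 0.27, adjusted p = 0.108, where 0.823% were called). Pdgfd in cluster 5 was 63.8 and 39.2 CPM in young and 90.0 and 101 CPM in aged libraries (log2 fold change 0.79, SE 0.26, adjusted p = 0.180). None of these differences between cluster groups in Pdgfa or Pdgfd passed the edgeR test.

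**Figure D4:**
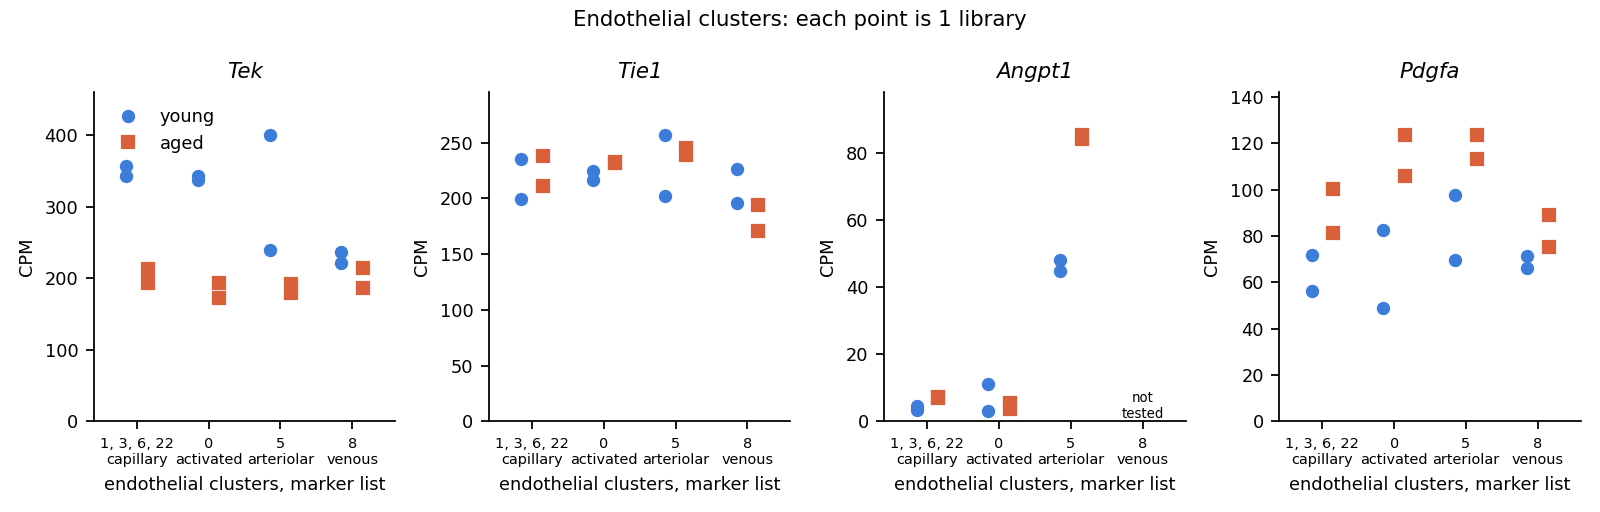
CPM (y axis, from 0) of Tek, Tie1, Angpt1 and Pdgfa in 4 groups of endothelial clusters, 1 point per library (circles young, squares aged). Tek of both ages lies close together in cluster 8 (186 to 237 CPM) and apart in clusters 1, 3, 6 and 22 and in cluster 0, and Angpt1 is highest in cluster 5.

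In mesangial cells Pdgfrb fell and Pdgfa rose, and the other 7 of the 9 members tested did not pass. Pdgfrb stood at 657 and 661 CPM in young and 404 and 386 CPM in aged mesangial sums. The libraries of each age lay close together and the ages were far apart. The log2 fold change was -0.74 (SE 0.14, adjusted p = 0.0163, over 10531 genes), so that Pdgfrb fell by 40.1%. Among all mesangial genes 5.37% were called, 1.83% lower and 3.54% higher in aged cells, beside 1 lower and 1 higher of the 9 members. Without young 1 the adjusted p was 0.127 and without young 2 it was 0.119, with the log2 fold change at -0.74 and -0.73, and over 11 alternatives it ranged from 6.59e-06 to 0.127. With single cells of mixed markers kept, the log2 fold change was -0.39 (adjusted p = 0.0890). Thinned to 1000 UMIs, 46.2 ± 0.264% (SD, n = 2) of young and 30.3 ± 3.48% of aged mesangial cells had a Pdgfrb UMI (exact permutation p = 0.33), against 0.307% to 1.74% of podocytes. Median depths of the mesangial cells were 4456, 3783, 4459 and 7091 UMIs in young 1, young 2, aged 1 and aged 2, and the unthinned shares are those given above.

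The 2 ages were represented by different mesangial clusters. Cluster 13, led by Gucy1a3, Sfrp2 and Itga8, held 227, 157, 29 and 12 mesangial cells in young 1, young 2, aged 1 and aged 2, and cluster 9, led by the chemokine genes Cxcl13 and Ccl2, held 22, 12, 584 and 483. Within cluster 9, Pdgfrb was 409 CPM (95% Poisson interval 265 to 604) in young 1, 481 (298.0 to 736) in young 2, 372 (354 to 391) in aged 1 and 375 (359 to 392) in aged 2, unscaled. Within cluster 13 it was 683 (641 to 727) and 699 (648 to 752) in young and 524 (403 to 670.4) and 605 (434 to 821) in aged libraries. In both clusters the aged values were the lower ones, but the young and aged intervals overlapped in each. These intervals cover counting error only, and cluster and age cannot be told apart in the sum.

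Pdgfa stood at 159.8 and 156 CPM in young and 329 and 246 CPM in aged mesangial sums. Both aged libraries were higher, and they differed from each other by more than the young ones did. The log2 fold change was 0.86 (SE 0.17, adjusted p = 0.0178), a rise of 82.1%. Without young 1 the adjusted p was 0.0866 and without young 2 it was 0.0761, with a range of 3.48e-08 to 0.0866 over 11 alternatives. Unscaled Pdgfa in cluster 13 was 163 (143 to 185) and 167 (143 to 195) CPM in young and 274 (189 to 385) and 458 (311 to 650) CPM in aged libraries, so the interval of aged 1 reached that of young 2 and the interval of aged 2 did not. In cluster 9 it was 179.9 (89.8 to 322) and 45.8 (5.55 to 166) CPM in young and 308 (291 to 325) and 239 (226 to 252) CPM in aged libraries.

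Angpt2, the ligand that mesangial cells held most of, was 218 and 194 CPM in young and 415 and 264 CPM in aged mesangial sums. The groups did not overlap, but aged 1 was far above aged 2. The log2 fold change of 0.72 (SE 0.21, adjusted p = 0.0706) did not pass. It was 1.00 without aged 2 (adjusted p = 1.06e-07) and 0.36 without aged 1 (adjusted p = 0.124), with a range of 1.06e-07 to 0.270 over 11 alternatives. Pdgfra gave 201 and 214 CPM in young and 119 and 154 CPM in aged sums, with a log2 fold change of -0.60 (SE 0.16, adjusted p = 0.0600) that did not pass, and it was -0.80 (adjusted p = 9.86e-05) without aged 2, with a range of 9.86e-05 to 0.261 over 11 alternatives. Its share of mesangial cells after thinning to 1000 UMIs was 15.7% and 23.2% in young and 8.36% and 10.9% in aged libraries. Pdgfra is also known from fibroblasts, and the 6 fibroblast markers summed to 75.5, 80.2, 57.6 and 103 CPM in the mesangial sums of young 1, young 2, aged 1 and aged 2, with Dpt and Mfap5 at 0 in each. Among them Dcn was higher in aged sums, at 4.59, 0.955, 31.0 and 46.9 CPM, and Col1a2 was lower, at 70.9, 79.3, 25.6 and 55.2 CPM. Their part in the Pdgfra values was not tested.

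The Tie genes found in mesangial sums were Tek at 62.9 and 61.3 CPM in young and 51.6 and 44.4 CPM in aged libraries (log2 fold change -0.38, SE 0.17, adjusted p = 0.244) and Ptprb at 114 and 129 CPM in young and 157 and 162 CPM in aged ones (log2 fold change 0.40, SE 0.15, adjusted p = 0.150). Tie1 had 4, 4, 21 and 22 UMIs. As a share of the endothelial level, mesangial Tek was 20.0%, 18.0%, 27.6% and 22.6%, Ptprb 8.41%, 7.36%, 12.3% and 12.8%, and Tie1 1.30%, 1.54%, 2.24% and 1.94%. The 9 endothelial markers had a median share of 5.30%, with Pecam1 at 2.49% and Cdh5 at 2.17% on average, and Esam at 20.2%, Ehd3 at 30.1% and Eng at 78.7%. None of the 9 was at 0 in mesangial sums, and their summed level was 1573, 1679, 1999 and 2069 CPM in young 1, young 2, aged 1 and aged 2. Tek thus stood well above Tie1, Pecam1 and Cdh5 on this scale, but below Ehd3 and Eng in every library, and its range overlapped with that of Esam. The part of endothelial RNA in the mesangial values was not tested. With single cells of mixed markers kept, the age effect in mesangial sums was -1.30 for Tek (adjusted p = 2.46e-04), -1.30 for Ptprb (adjusted p = 1.76e-04) and -1.74 for Tie1 (adjusted p = 6.05e-04), so that the last 2 turned in direction, and over the alternatives these p ranged up to 0.746, 0.597 and 0.930.

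**Figure D5:**
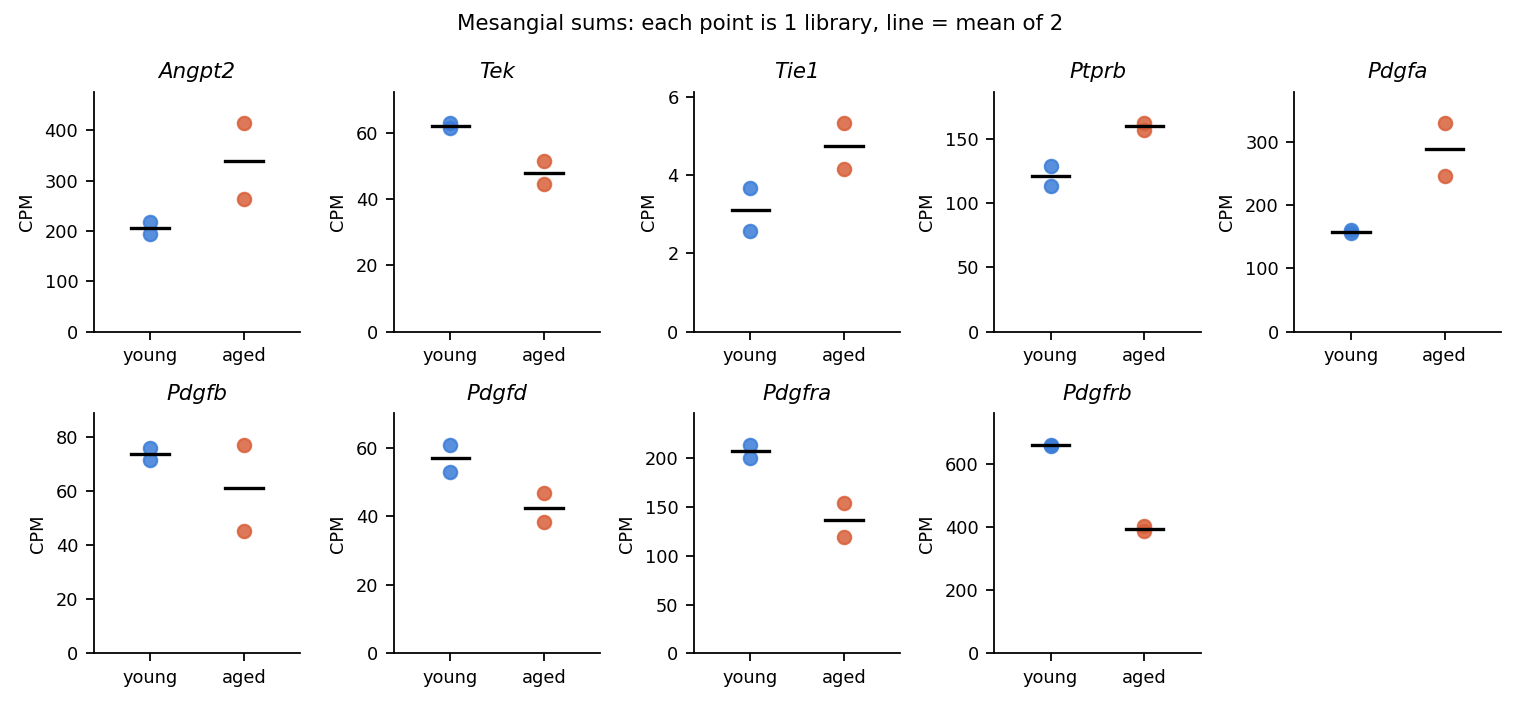
CPM (y axis, from 0) of the 9 members tested in mesangial sums, 1 point per library by age group with the mean as a line. Pdgfrb falls from 657 and 661 CPM to 404 and 386 CPM, Pdgfa rises, and the aged Angpt2 points lie far apart at 415 and 264 CPM.

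The remaining mesangial members were Pdgfb with 71.2 and 76.0 CPM in young and 45.2 and 77.1 CPM in aged sums, where the ages overlapped (log2 fold change -0.25, SE 0.24, adjusted p = 0.588), and Pdgfd with 61.0 and 53.1 CPM in young and 46.7 and 38.4 CPM in aged sums (log2 fold change -0.44, SE 0.19, adjusted p = 0.213). In 8 of the 9 mesangial members the groups did not overlap, and 53.9% of all mesangial genes showed the same. The median log2 fold change of the 9 members was -0.25 and that of all mesangial genes -0.00484.

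Smooth muscle and renin cells, 68 and 71 in young and 54 and 35 in aged libraries, had 5 members past the filter. Ptprb was the 1 member called, in a class where 2.25% of 3510 genes passed, 0.883% as falls and 1.37% as rises. It had 18 and 25 UMIs in young and 0 and 0 in aged libraries, and so passed the count filter through its young counts alone. The unscaled young mean of 90.8 CPM was 5.25-fold a floor of 3 counts per aged library. No error of the young counts is allowed for, so this is not a lower bound. The edgeR adjusted p was 5.76e-04, and the fitted fold change depends on the prior count where UMIs are 0. Of the 9 endothelial markers, 7 had a lower level in both aged than in both young libraries, while Esam (181 and 116 CPM in young, 166 and 202 CPM in aged) and Eng (86.4 and 68.8 CPM in young, 75.3 and 169 CPM in aged) overlapped. Pecam1 had 9 and 12 UMIs in young against 1 and 0 in aged libraries, Cdh5 4 and 11 against 0 and 0, and Flt1 15 and 19 against 1 and 0, and the summed level of the 9 endothelial markers was 728 and 705 CPM against 362 and 515 CPM. The part of endothelial RNA in the Ptprb difference was not tested. Pdgfa stood at 544 and 397 CPM in young and 727 and 674 CPM in aged sums (log2 fold change 0.58, SE 0.20, adjusted p = 0.167), and Pdgfrb at 360 and 306 CPM in young and 323 and 249.98 CPM in aged sums (log2 fold change -0.20, SE 0.23, adjusted p = 0.790). Angpt2 was 87.6 and 95.6 CPM in young and 117 and 182 CPM in aged sums, and Pdgfd had 6 to 13 UMIs. In 4 of the 5 members the groups did not overlap, against 42.0% of all genes.

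Podocytes and the parietal sub-clusters had 3 members each past the filter. edgeR called none of them, and none had an unadjusted p under 0.05. In podocytes, where 628 of 10861 genes (5.78%) passed, 3.86% as rises and 1.92% as falls, and 1833 had an unadjusted p under 0.05, Pdgfrb was 10.8, 12.5, 9.90 and 9.92 CPM in young 1, young 2, aged 1 and aged 2 (log2 fold change -0.21, SE 0.23, adjusted p = 0.738). Podocyte Ptprb was 2.87 and 16.9 CPM in young and 4.68 and 6.12 CPM in aged sums, and its log2 fold change of -0.61 was 0.89 without young 2 and -1.66 (adjusted p = 0.00864) without young 1, with a range of 0.00864 to 0.99965 over 11 alternatives. Young 2 was also the podocyte sum with the most endothelial marker signal, 124 CPM against 45.3, 77.0 and 61.1 CPM. DESeq2 called no podocyte member either. In the parietal sub-clusters (116 of 3610 genes called, 3.21%, with 1.88% as rises and 1.33% as falls, and 591 at an unadjusted p under 0.05), Pdgfb was 80.1, 154, 190.0 and 154 CPM (log2 fold change 0.51, SE 0.35, adjusted p = 0.521) and DESeq2 called none. The groups overlapped in all 3 members there and in 2 of the 3 in podocytes, while 45.6% and 46.2% of all genes of these classes did not overlap.

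Other genes of both pathways were read from lists. The 17 Tie pathway partners were further ligands, adaptors and effectors, with angiopoietin-like genes listed beside them and not as Tie ligands. In endothelial cells 13 were tested, of which none rose and 1 fell, where 3.90% of all endothelial genes rose and 1.99% fell. The gene that fell was Grb14, an adaptor that binds activated Tek, with 5.63 and 5.82 CPM in young and 2.66 and 1.99 CPM in aged sums (log2 fold change -1.29, SE 0.31, adjusted p = 0.0155). In mesangial cells 2 of 11 rose and none fell, where 3.54% of all genes rose and 1.83% fell. They were the ligand gene Angpt4 and the angiopoietin-like gene Angptl4. Angpt4 had 3.21 and 0.915 CPM in young and 8.13 and 13.04 CPM in aged sums (edgeR adjusted p = 0.0488). It passed the count filter through its aged counts alone, so its call is no support for a rise. Angptl4 had 53.3 and 40.3 CPM in young and 108 and 129 CPM in aged sums (edgeR adjusted p = 0.00362). Svep1, an extracellular ligand of Tie1, rose in podocytes by the edgeR test (adjusted p = 1.70e-04), from 30.1 and 42.8 to 64.9 and 75.9 CPM. Its log2 fold change there was 0.99 (SE 0.16). It was the 1 gene called of 13 tested, where 3.86% of all podocyte genes rose and 1.92% fell. In the parietal sub-clusters Svep1 fell by the same test (adjusted p = 0.0166), from 116 and 170 to 51.4 and 26.9 CPM. Its log2 fold change there was -1.92 (SE 0.43). It was the 1 gene called of 5 tested, where 1.88% of all genes of that class rose and 1.33% fell.

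FOXO1 is the transcription factor that Tek signalling keeps out of the nucleus, and 12 genes linked to its activity were listed. In endothelial cells 2 of 12 rose and none fell, where 3.90% of all endothelial genes rose and 1.99% fell. Irs2, an insulin receptor substrate, went from 68.8 and 63.7 to 99.4 and 91.2 CPM (log2 fold change 0.52, SE 0.14, adjusted p = 0.0282), and Gadd45a, a stress-response gene, from 61.1 and 65.1 to 102 and 97.4 CPM (log2 fold change 0.66, SE 0.14, adjusted p = 0.00580). Their groups did not overlap. In podocytes the same 2 genes and Cited2 rose among 11 tested, with log2 fold changes of 0.76 (Irs2), 0.67 (Gadd45a) and 0.57 (Cited2). Of all podocyte genes 3.86% rose and 1.92% fell. In mesangial cells Sod2 (1.10) and Trib1 (0.95) rose and Cited2 (-0.91) fell, all as log2 fold changes among 12 tested. Of all mesangial genes 3.54% rose and 1.83% fell. The list medians were 0.22 in endothelial, 0.01 in podocyte and 0.03 in mesangial cells, against -0.01, 0.00440 and -0.00484 over all genes. A part of Tek or FOXO1 in these values was not tested.

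Of the 17 PDGF pathway partners, 13 were tested in endothelial cells, and 4 rose and 1 fell, beside the 3.90% and 1.99% of all endothelial genes. Plat, whose product tissue plasminogen activator can activate another PDGF ligand, Pdgfc, rose from 3307 and 2612 to 6126 and 4279 CPM (log2 fold change 0.81, SE 0.21, adjusted p = 0.0278). Furin, a protease that processes PDGF precursors, rose from 67.2 and 66.5 to 96.6 and 92.3 CPM (log2 fold change 0.50). Ndst1, which sulfates the heparan sulfate that retains PDGF-B, rose by 0.64 and Sphk1 by 0.82 on the log2 scale. Rgs5, a mural cell gene, fell from 8.29 and 1.40 CPM to 0.259 and 0.515 CPM, a low level in endothelial sums with most of it in young 1. It passed the count filter through its young counts alone, so its call is no support for a fall. The list medians of the Tie and PDGF partners were 0.10 and 0.01 in endothelial cells and 0.38 and 0.16 in mesangial cells, on the log2 scale, against -0.01 and -0.00484 over all genes of these classes.

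In mesangial cells 15 PDGF partners were tested, and 2 rose and 2 fell, beside the 3.54% and 1.83% of all mesangial genes. Pdgfc fell from 43.0 and 53.1 to 22.4 and 21.7 CPM (log2 fold change -1.11, SE 0.21, adjusted p = 0.0128). Nrp1, a co-receptor for PDGF and VEGF ligands, fell from 2169 and 2197 to 1243 and 1202 CPM (log2 fold change -0.84, SE 0.16, adjusted p = 0.0157). Plat rose from 114 and 181 to 429 and 245 CPM and Sphk1 from 1.28 and 0.915 to 27.9 and 10.2 CPM. Sphk1 passed the count filter through its aged counts alone, so its call is no support for a rise. In smooth muscle and renin cells edgeR called none of the 5, 8 and 9 genes tested from the Tie, FOXO1 and PDGF lists, with 0, 2 and 0 at an unadjusted p under 0.05. Among the 8 PDGF partners tested in each of podocytes and the parietal sub-clusters none was called either, with 2 and 2 at an unadjusted p under 0.05.

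Differences in age effect between classes were tested over 10 pairs of classes and 85 member values, of which 5 were called, all of Ptprb. The age effect of Ptprb was 0.71 higher on the log2 scale in mesangial than in endothelial cells (SE 0.16, adjusted p = 0.0221), where 2.44% of genes were called. It was 1.00 higher in mesangial cells than in podocytes, where 6.14% were called. The other 3 calls set smooth muscle and renin cells, with their 0 aged UMIs, against podocytes (0.931% of genes called), endothelial cells (0.970%) and mesangial cells (1.88%). These 3 rest on the young counts of that class, so they are not read as differences. No member passed between endothelial cells and podocytes (6.41% of genes called), or between the parietal sub-clusters and podocytes (2.07%), endothelial cells (0.767%), mesangial cells (1.64%) or smooth muscle and renin cells (1.48%). Tek did not pass between endothelial and mesangial cells (0.43, SE 0.19, adjusted p = 0.328), nor did Pdgfa (0.25, SE 0.17, adjusted p = 0.568). The lower Tek of aged endothelium was thus not shown to differ from that of mesangial cells, nor was the Pdgfa rise of either class.

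Genes with the most similar profile over the 8 classes with at least 20 cells in every library were sought by Pearson correlation of log2(CPM + 1), among 6196 genes (6197 for Angpt1) that reached 50 CPM in some class. The nearest to Tek were Myct1 (0.992), Ptprb (0.989) and Exoc3l2 (0.987), and the nearest to Tie1 were Mal (0.990), Sele (0.989) and Mest (0.989). Angpt2 lay nearest to Lhfp (0.998), Tril (0.985) and Sfrp2 (0.981), Pdgfra to Vegfd (0.984), Epha3 (0.983) and Adgrl3 (0.981), and Pdgfrb to C1s1 (0.976), Cacna2d1 (0.973) and Rarres2 (0.965). Pdgfb lay nearest to Cttnbp2nl (0.971), Eif4g1 (0.963) and Csf1 (0.961), Pdgfa to Mgp (0.988), Hoxb2 (0.984) and Tinagl1 (0.982), Pdgfd to Nfib (0.993), Tinagl1 (0.990) and Fhl1 (0.984), Ptprb to Tek, Myct1 (0.985) and Meox1 (0.980), and Angpt1 to Ddit4l (0.974), Clu (0.966) and Id4 (0.959). With 8 classes that share their libraries, these values are descriptions.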

How the data were processed

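Each of the 4 libraries, made with a droplet 3′ kit, had a deposited matrix of raw UMI counts per gene and barcode, without normalization. The labels' protocols name Cell Ranger 3.1.0, and the submitters' processing notes name Cell Ranger 6.0.1 and GRCm38, so the version that made the counts was not settled. No barcode had under 500 UMIs. Barcodes with at least 500 genes and at most 20% mitochondrial UMIs were kept, and 1876 likely doublets (6.28%) were removed by score at 0.8% per 1000 barcodes, because the automatic threshold of Scrublet in scanpy 1.11.5 marked 134 of 29876 (0.449%). Cells were clustered with leidenalg 0.10.2 at resolution 1 on 2000 variable genes without the members, which gave 31 clusters after sub-clustering. Clusters were named from marker lists, and clusters or single cells with markers of an unrelated class were left out. Thresholds for these names were chosen with the data in view.

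Counts were summed per class and library and tested in R 4.3.3 with edgeR 4.0.16 (TMM, filterByExpr, quasi-likelihood F test of age, Benjamini-Hochberg over all genes tested, threshold 0.05). Standard errors are the fold change divided by the root of F. Differences between classes used a library block. Alternatives were DESeq2 1.42.0, other size factors, no count filter, leaving out each library, a replicate block, Leiden resolution 2, doublets or mixed cells kept and single groups of endothelial clusters. The cluster groups other than the capillary one, and the tests between them, were added after seeing the data. On simulated counts, 79% of 2-fold changes were recovered in endothelial and 45% in mesangial sums, over 13148 and 10531 genes. In podocyte, smooth muscle and renin, and parietal sums the recovered shares were 74%, 48% and 29%.

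The members, marker lists and pathway lists were chosen with earlier results of these data known. Named genes are all members that passed the filter, up to 4 called genes per direction, class and pathway list, and the 3 genes most like each member.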

Additional observations from a re-analysis of the deposited data

Results flagged for a closer look

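The edgeR test of the difference called the age effect of Ptprb in 5 of the 10 pairs of cell classes. In 3 of these 5, 1 class was smooth muscle and renin cells, where Ptprb passed the count filter through its young counts alone. Those 3 calls are therefore no support for a difference between classes. It was 0.71 higher on the log2 scale in mesangial than in endothelial cells and 1.00 higher in mesangial cells than in podocytes (adjusted p = 0.0477). With single cells of mixed markers kept, the mesangial age effect itself turned from 0.40 to -1.30 (adjusted p = 1.76e-04, with a range of 1.76e-04 to 0.597 over its 11 alternatives), and the differences between classes were not recomputed with those cells. The podocyte age effect of -0.61 was 0.89 without young 2. In smooth muscle and renin cells the fitted effect was lower than in podocytes by -10.35, than in endothelial cells by -11.56 and than in mesangial cells by -10.59. Both aged smooth muscle and renin sums held 0 Ptprb UMIs, so these 3 fitted values depend on the prior count and are not sizes of change, and the part of endothelial RNA was not tested.

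The age effect of Tek differed between groups of endothelial clusters. Cluster 8 was highest in venous or peritubular markers and also carried arteriolar ones. Its Tek age effect was 0.61 above that of clusters 1, 3, 6 and 22, with glomerular capillary markers. It was 0.72 above that of cluster 0, with activated markers. These 2 tests were added after the data had been seen.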

How the results depend on the processing

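Of 334 recomputed member fold changes, 281 kept direction and side of the threshold, 24 lost their call, 12 gained one and 17 changed sign. They cover 28 results, most of them not called in the main fit, so most of the 281 had no call to lose. In endothelial cells, where 3 members were called, the count was 0 with no filter on low counts, 1 in the glomerular capillary clusters alone, 0 in the arteriolar and 0 in the venous or peritubular cluster alone, and 0 to 3 when 1 library was left out (0 without either young library, 1 without aged 1). In mesangial cells, with 2 called, it was 4 with no filter, 5 with mixed cells kept, and 0 to 5 when 1 library was left out (0 without either young library, 5 without aged 2). Leaving out 1 library gave 0 to 1 members in podocytes (1 without young 1) and 0 to 1 in smooth muscle and renin cells (0 without young 2). The main fit called 5.89% of all endothelial and 5.37% of all mesangial genes. In the glomerular capillary, arteriolar and venous or peritubular clusters alone, 3.50%, 1.20% and 3.67% of genes were called. Counts of all genes called also moved between the other settings, as given further on, so the moved member counts are not a result about the members. Fits without 1 library also have fewer degrees of freedom, and the cause of the moved counts was not tested.

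Correlations over genes of same-numbered deviations were 0.0365 to 0.104, and -0.0810 in smooth muscle and renin cells. They rest on 2 pairs of libraries, which cannot settle whether the replicate numbers pair them. With the replicate block, 4 mesangial members were called and 0, 3, 1 and 0 in the podocyte, endothelial, smooth muscle and renin, and parietal sums. All genes called were then 908, 998, 1588, 130 and 193 in the podocyte, endothelial, mesangial, smooth muscle and renin, and parietal sums. Without the block they were 628, 774, 566, 79 and 116.

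Sign changes were seen for values that had not passed the test, except endothelial Angpt1 in the activated cluster (-0.55). When 1 library was left out, podocyte Pdgfb ranged from -0.42 (without young 1) to 0.39, with -0.0137 without aged 1, podocyte Ptprb from -1.66 to 0.89 (without young 2), endothelial Tie1 from -0.0139 (without young 1) to 0.18, mesangial Pdgfb from -0.70 to 0.0756 (without aged 1) and Pdgfa in the parietal sub-clusters from -0.19 (without young 2) to 0.59. Podocyte Pdgfb was -0.0292 with DESeq2, -0.0107 with doublets kept and -0.0315 with mixed cells kept. Pdgfd was -0.0457 in the glomerular capillary and -0.10 in the activated clusters, Pdgfb 0.36 in the arteriolar cluster, and Tie1 -0.20 and Ptprb 0.0340 in the venous or peritubular cluster. With mixed cells kept, mesangial Tie1 (-1.74, adjusted p = 6.05e-04) and Ptprb (-1.30, adjusted p = 1.76e-04) fell past the threshold, and mesangial Pdgfrb was -0.39 (adjusted p = 0.0890). Thinning to 500 UMIs kept the direction of the share of cells for Tek, Tie1, Ptprb, Pdgfa, Pdgfb and Pdgfd in endothelial and for Angpt2, Pdgfa, Pdgfra and Pdgfrb in mesangial cells.

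Of all genes, DESeq2 called 270 against 628 in podocytes, 510 against 774 in endothelial cells, 381 against 566 in mesangial cells, 21 against 79 in smooth muscle and renin cells and 35 against 116 in the parietal sub-clusters. With no filter these counts were 773, 0, 1220, 104 and 192, and without 1 library they ranged over 303 to 797, 0 to 761, 280 to 1715, 77 to 96 and 0 to 118. With mixed cells kept they were 468, 818, 1541, 42 and 148, and with doublets kept the parietal sub-clusters had 182.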

Other observations

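Over all kept cells of a library, with no class assigned, the members still differed between libraries. Tek gave 135 and 150.0 CPM in young and 91.4 and 95.0 CPM in aged libraries, and Pdgfrb 122 and 134 CPM in young and 63.9 and 75.2 CPM in aged libraries. Pdgfa gave 59.6 and 70.0 CPM in young and 113 and 98.5 CPM in aged libraries, and Angpt1 3.35 and 5.93 CPM in young and 8.27 and 7.34 CPM in aged ones. Pdgfb gave 81.1 and 91.9 CPM in young and 85.4 and 93.8 CPM in aged libraries, so its ages overlapped. These totals depend on the mix of cells, which differed between libraries: fewer cells of a type and less RNA per cell cannot be told apart in them.

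Among endothelial cells with a Pdgfb UMI, 53.8%, 67.0%, 41.4% and 51.7% also had a Tek UMI in young 1, young 2, aged 1 and aged 2, beside 51.7%, 56.1%, 34.2% and 47.9% of all endothelial cells. Among cells with a Tek UMI, 41.7%, 51.6%, 44.9% and 54.7% had a Tie1 UMI. These shares were not thinned to 1 depth.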
